A study of Xenopus tropicalis with 12 samples.

Results

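Of the 189159 regions in which at least 1 of 12 libraries carried a thyroid hormone receptor (TR) peak, 1742 (0.921%) were occupied in wild type hind limb both without and with T3 treatment and under neither treatment in TRα (-/-) hind limb. A region is the union of peaks, from any library, that overlapped by 1 bp or more, and it was taken as bound in a condition if 2 or 3 of the 3 libraries of that condition listed a peak there. The 1742 regions made up 17.3% of the 10085 regions bound in wild type under both treatments (95% Wilson interval 16.5% to 18.0%, covering counting error only), and leaving out 1 library at a time gave 725 (without wild type with T3 replicate 3) to 3074 (without TRα (-/-) with T3 replicate 3). They were chosen by the presence or absence of peaks in the 4 conditions, so their absence from TRα (-/-) is their definition and not a result. A stricter subset of 323 regions (18.5%, Wilson interval 16.8% to 20.4%) had no peak in any of the 6 TRα (-/-) libraries, whereas the other 1419 (81.5%) had a peak in 1 or 2 of them. The name wild-type-only regions is used here as a label for the rule alone, since most of them had a peak in a TRα (-/-) library. The lists alone do not show that TR binding at each of them needs TRα.

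TRα and TRβ are nuclear receptors that bind thyroid hormone response elements in chromatin, mostly as heterodimers with the retinoid X receptor. Bound receptor without hormone recruits corepressor complexes, and after T3 binds it recruits coactivators, so that one site can be occupied in both hormonal states and act in opposite directions on its gene. In premetamorphic Xenopus tadpoles TRα is the main receptor of the limb, and TRβ is itself encoded by a gene that T3 induces.

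The libraries were made by ChIP-seq, which sequences the DNA that an antibody (here against TR) brings down from fragmented chromatin. Chromatin came from stage 54 hind limb of Xenopus tropicalis, each sample from at least 5 tadpoles. The wild type without T3 (WT-HL-control), wild type with 10 nM T3 for 18 h (WT-HL-T3), TRα (-/-) without T3 (TR-HL-control) and TRα (-/-) with 10 nM T3 for 18 h (TR-HL-T3) conditions each have 3 libraries, described by the study as technical replicates of a sample. Wild type animals were bought from a supplier and TRα (-/-) animals came from crosses of heterozygous frogs, and the TRβ gene was intact in all groups. With 1 chromatin sample per condition, the genotype, the source of the animals and the sample cannot be told apart, and neither can T3 treatment and the sample. All spreads and p values given are between technical libraries, and a difference with T3 is a difference between the sample with T3 and the sample without.

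The shallowest library, TRα (-/-) without T3 replicate 2, had 834029 fragments and the deepest, replicate 3 of wild type without T3, had 6119057. The lists had a lowest summit pileup (the number of fragments stacked at the highest point of a peak) of 2 to 5 fragments. A region without a peak in a library is therefore a region not detected at that library's depth. The reverse pattern, bound in TRα (-/-) under both treatments and in wild type under neither, was found at 147 of the 5872 regions bound in both TRα (-/-) conditions (2.5%, Wilson interval 2.13% to 2.94%, covering counting error only). That count went to 14 and 18 without TRα (-/-) without T3 replicate 3 or 1. It went to 52, 65 and 88 without TRα (-/-) with T3 replicate 3, 2 or 1. Without replicate 3, 2 or 1 of wild type without T3 it was 320, 272 and 257. With equal numbers of peaks in every list, 133 regions had the reverse pattern and 330 were wild-type-only.

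First, the libraries that carried the wild-type-only regions were counted. Without T3, wild type replicates 1, 2 and 3 had a peak in 1352, 1383 and 1550 of the 1742 regions. With T3, they had a peak in 1136, 1331 and 1495. In each treatment replicate 3, the deepest library, carried the most regions. For TRα (-/-), the libraries without T3 had a peak in 252, 29 and 594 of the regions, and those with T3 in 222, 372 and 616. Every TRα (-/-) library lay far below every wild type library. The rule allows each region at most 1 library per TRα (-/-) condition, so low numbers there are not a result. In TRα (-/-), replicate 3, again the deepest, carried the most in both treatments. Most TRα (-/-) libraries did list the regions bound in all 4 conditions, of which there were 5098: 5 of the 6 libraries had a peak in 82.7% to 99.1% of those. The exception was TRα (-/-) without T3 replicate 2, the shallowest library, which listed 49.4% of them. The part of depth in the number of wild-type-only regions was not tested.

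Few of the regions were present in every wild type library. The largest class, 749 regions (43.0%), had the minimum of 2 libraries under each treatment. A further 515 (29.6%) had 3 libraries without T3 and 2 with T3, and 192 had 2 without T3 and 3 with T3. Peaks in all 6 wild type libraries were found for 286 regions (16.4%). The same held for 5136 of the 10085 regions bound in wild type under both treatments. Of the 5098 regions bound in all 4 conditions it held for 3655. In TRα (-/-), 666 regions (38.2%) had 1 library under each treatment, 544 (31.2%) had 1 with T3 only and 209 had 1 without T3 only. Only 43 of the 1742 regions combined a peak in all 6 wild type libraries with none in TRα (-/-).

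The wild-type-only regions had weak peaks, which were called without a control library. Without T3 their median summit pileup was 6, 8 and 10 fragments in wild type replicates 1, 2 and 3, counted where the library had a peak. With T3 it was 4, 6 and 7 fragments. The regions bound in all 4 conditions had medians of 13, 17 and 23 fragments without T3 and of 7, 11 and 13 with T3, higher in each of the 6 libraries. Fold enrichment, the pileup relative to the local background, showed the same order: its median over wild-type-only regions was 3.96 to 5.26 in the 6 wild type libraries, against 5.64 to 9.19 for regions bound in all 4 conditions. The stricter subset was no stronger, with median pileups of 6, 7 and 10 without T3 and of 4, 5 and 6 with T3. These values come from the peaks that the rule used and are given as a description.

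**Figure D1:**
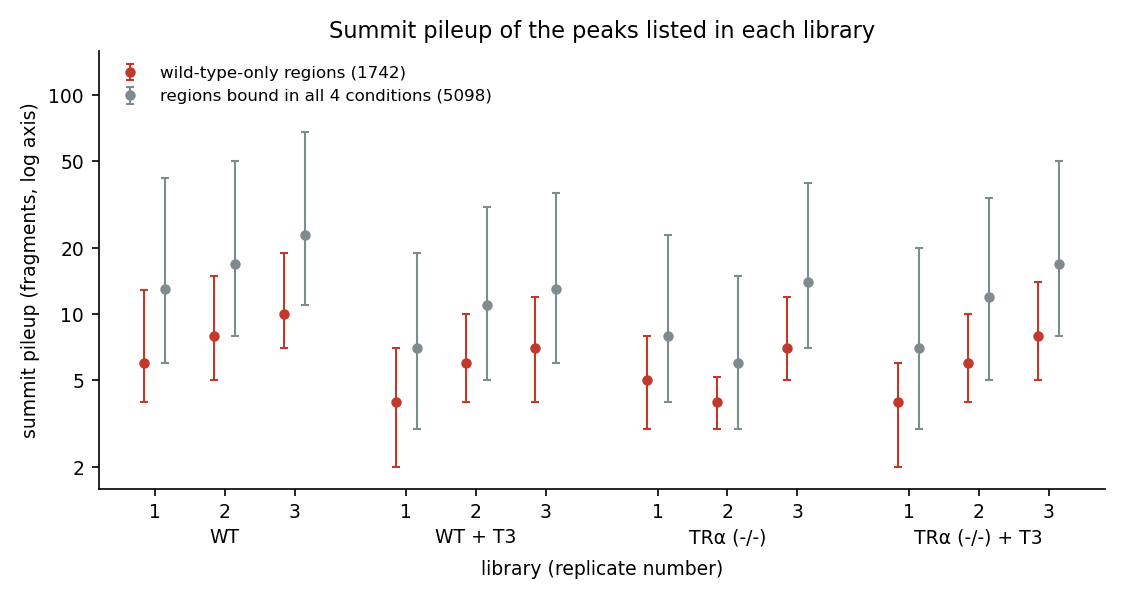
Summit pileup (fragments, log axis) of the peaks listed in each of the 12 libraries, for the 1742 wild-type-only regions (red) and the 5098 regions bound in all 4 conditions (grey); points are medians and bars run from the 10th to the 90th percentile of the regions that had a peak in that library. In each library the red median lies below the grey one, 6 against 13 fragments in wild type without T3 replicate 1.

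When the 10085 regions bound in wild type under both treatments were ordered by mean percentile of q value in the wild type lists and divided into 10 groups of equal size, the wild-type-only regions were concentrated at the weak end. They made up 465 of 1009 regions (46.1%) in the weakest group, 163 of 1009 (16.2%) in the fifth and 9 of 1009 (0.892%) in the strongest. The stricter subset went from 9.91% in the weakest group to 0.198%, or 2 regions, in the strongest. Among the strongest 20% of wild type sites there were thus 31 wild-type-only regions, 6 of them without a peak in any TRα (-/-) library. Regions bound in all 4 conditions, a separate part of the same 10085, took the opposite course, from 14.4% of the weakest group to 94.8% of the strongest. The strength was taken from wild type peaks that the rule used, so these shares are a description and not a result. The parts of depth and of the cutoff in them were not tested.

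**Figure D2:**
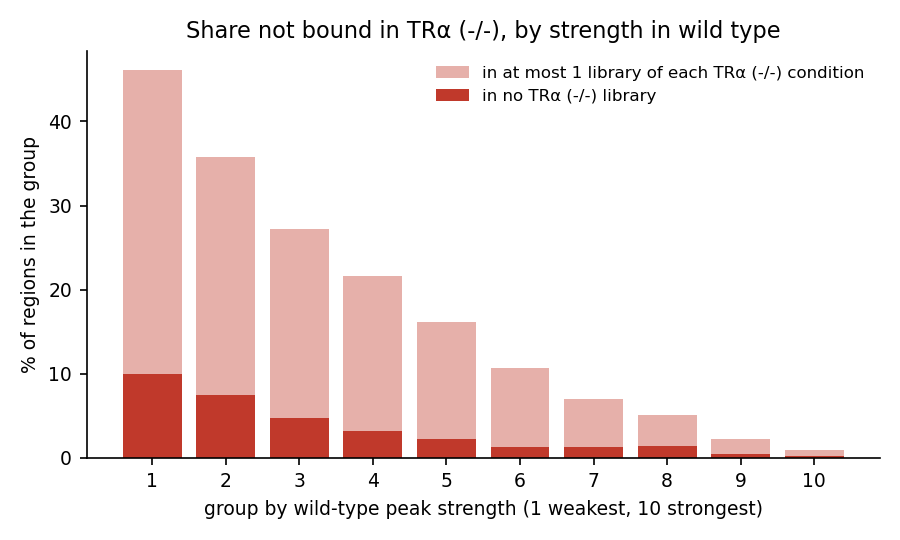
Percentage of regions in each of 10 groups of equal size, ordered by wild type peak strength (mean q value percentile, 1 weakest), that had a peak in at most 1 library of each TRα (-/-) condition (light bars) or in no TRα (-/-) library (dark bars, drawn over the light ones). The light bars fall from 46.1% to 0.892% and the dark bars from 9.91% to 0.198%. The strength comes from peaks that the rule used, and the shares are a description.

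The lowest wild type pileup of each region, relative to the depth of its library, was scaled to the depth of each TRα (-/-) library. The median scaled pileup was 2.35, 1.23 and 4.41 fragments for the libraries without T3 and 1.38, 2.69 and 4.19 for those with T3. These values were near the lowest pileups those lists contain. For regions bound in all 4 conditions it was 4.67, 2.44 and 8.77 without T3 and 2.75, 5.35 and 8.33 with T3. Their listed peaks there had higher median pileups, of 8, 6 and 14 without T3 and of 7, 12 and 17 with T3. A scaled pileup of at least 8 fragments was reached by 22, 6 and 142 wild-type-only regions in the libraries without T3. In those with T3 it was reached by 6, 31 and 129. Of the regions that reached it, 16.7% to 33.8% had a peak in the library concerned, against 85.5% to 99.5% of the regions bound in all 4 conditions that reached it. This contrast follows from the rule, which allows the former 1 library and asks of the latter at least 2 libraries in each TRα (-/-) condition. Only 6 wild-type-only regions reached it in all 6 TRα (-/-) libraries, of which 3 were without any TRα (-/-) peak. For the other regions, the scaled pileup was under 8 fragments in at least 1 TRα (-/-) library.

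The regions just inside and just outside the rule were also compared. The 666 regions with 1 library in each TRα (-/-) condition had median q value percentiles in wild type of 67.2, 59.7 and 57.1 without T3 and of 72.5, 66.8 and 72.1 with T3. The 2008 regions that missed the rule by exactly 2 libraries in a single TRα (-/-) condition had 71.5, 65.8 and 65.2 without T3 and 77.7, 72.4 and 76.4 with T3. The outside regions had the higher median in every library.

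Next, the strongest regions were examined one by one. The 10 with the highest mean q value percentile among the 43 present in all 6 wild type and no TRα (-/-) libraries lay on 7 chromosomes of the v9.1 genome, in whose coordinates all positions are given. The first, on chromosome 8 from 97780565 to 97780793 (229 bp), had summit pileups of 51, 62 and 95 fragments without T3 and of 15, 37 and 28 with T3. The fourth lay 7.7 kb further along, from 97788263 to 97788631, with 17, 28 and 32 fragments without T3 and 6, 14 and 10 with T3. Both were higher without T3 in all libraries, in raw fragments, and the libraries without T3 were also the deeper ones. Nearby regions were looked at only if at least 6 libraries had a peak there, so a listing in TRα (-/-) is not a result. A region that starts 25.6 kb from the start of the first was listed in every library. It had 27 to 35 fragments in wild type without T3, 14 to 29 with T3, and 13, 8, 25, 10, 19 and 34 in the TRα (-/-) libraries. A much stronger one at 32.9 kb was also listed in every library, with 200 to 773 in TRα (-/-). The site at 25.6 kb was weaker than the first region in wild type without T3. With T3 it had 14, 23 and 29 fragments, against 15, 37 and 28 for the first region. Its wild type peaks were also longer, at 866 to 1091 bp against 187 to 226 bp. Why the first region had no TRα (-/-) peak was not tested.

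The second region, on chromosome 5 from 146366180 to 146366387 (208 bp), had 37, 41 and 64 fragments without T3 and 22, 38 and 36 with T3. Its nearest neighbour bound in all 4 conditions, 2.31 kb away, was weaker in wild type, with 16, 20 and 24 fragments without T3 and 10, 8 and 19 with T3. That neighbour was listed in 5 of the 6 TRα (-/-) libraries, with 6 to 26 fragments. Its listing there follows from its choice among regions bound in all 4 conditions, and is not a result.

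The other 7 regions of the 10 had lower pileups than the first and second in wild type without T3. The third (chromosome 1, 4488329 to 4488978) had 17, 12 and 26 fragments without T3 and 7, 9 and 12 with T3. The fifth (chromosome 3, 3690248 to 3690469) had 13, 12 and 26 without T3 and 6, 7 and 15 with T3. In each, 1 library with T3 reached the range of those without T3. The nearest region bound in all 4 conditions lay 18.1 kb from the third, listed in 5 TRα (-/-) libraries, and 5.05 kb from the fifth, listed in 6. The sixth (chromosome 6, 131191264 to 131192794) had 14, 16 and 25 without T3 and 9, 6 and 15 with T3. The seventh (chromosome 9, 53830006 to 53831422) had 19, 29 and 41 without T3 and 7, 12 and 9 with T3. In raw fragments, the sixth overlapped between treatments and the seventh did not. The remaining ones went the other way in part. The libraries without T3 were the deeper ones, and the differences after scaling are given with the limma comparison below.

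The eighth (chromosome 1, 83707345 to 83707932) had 8, 15 and 12 fragments without T3 and 11, 19 and 11 with T3. The ninth (chromosome 7, 94753891 to 94754413) had 12, 8 and 27 without T3 and 4, 5 and 13 with T3. The tenth (chromosome 7, 78018490 to 78019047) had 8, 10 and 9 without T3 and 11, 12 and 11 with T3, and was the only one of the 10 with more fragments in every T3 library than in any without T3. These 3 and the seventh were isolated: the nearest region bound in all 4 conditions lay 207 to 669 kb away. Scaled to depth as above, the lowest wild type pileup of the first and second regions corresponded to 8.17 to 36.4 fragments in the TRα (-/-) libraries, whereas for the other 8 the lowest scaled value was 1.23 to 3.61 fragments. By this scaling, only the first and second stood clearly above the lowest listed pileup in every TRα (-/-) library. The TRα (-/-) peaks of regions bound in all 4 conditions were, at the median, higher than the same scaling gave, as stated above. A low scaled value therefore does not show that a peak could not be listed.

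**Figure D3:**
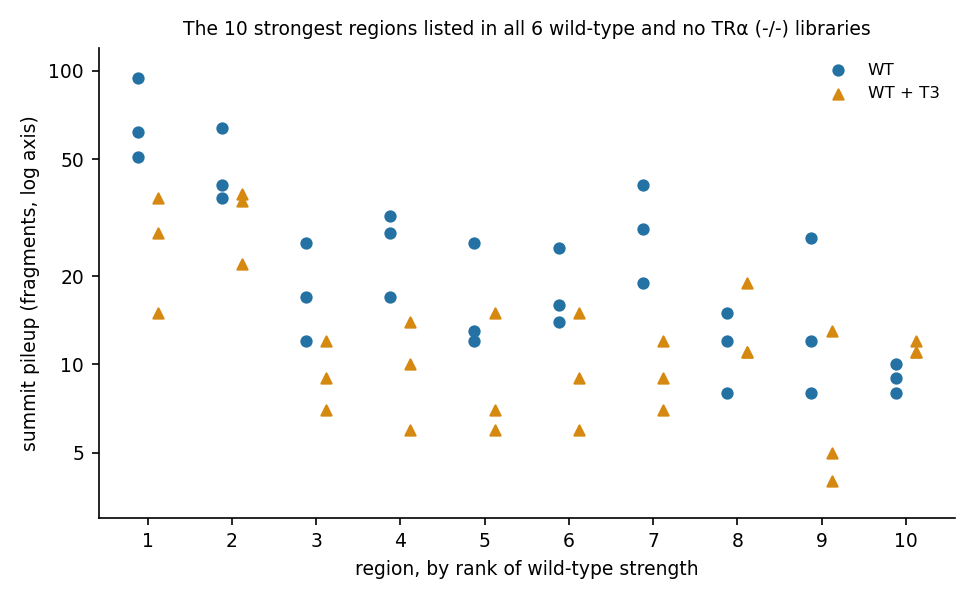
Summit pileup (fragments, log axis) of the 10 named wild-type-only regions, in order of wild type strength, in the 3 wild type libraries without T3 (blue circles) and the 3 with T3 (orange triangles); none had a peak in a TRα (-/-) library. The first region spans 15 to 95 fragments and the last 8 to 12.

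The length of the peaks differed between wild-type-only and other regions. The shortest peak of each list equalled the fragment size given in its header, which was 152, 176 and 174 bp for wild type without T3 and 154, 180 and 191 bp with T3. It was 177, 180 and 200 bp for TRα (-/-) without T3 and 180, 205 and 224 bp with T3, and thus longer than in wild type for each replicate number under each treatment. A median wild type peak length below 224 bp was found for 79 wild-type-only regions (4.54%) and 28 of the stricter subset (8.67%), against 20 of the regions bound in all 4 conditions (0.392%). Within the strongest 20% of wild type sites the numbers were 11 of 31 (35.5%), 3 of 6 and 10 of 1813 (0.552%). Regions bound in wild type under both treatments and in 1 TRα (-/-) condition lay between, at 3 of 15 for those without T3 only and 6.33% of 158 for those with T3 only.

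The first and second named regions were among the short ones. The peaks of the first were 214, 212 and 226 bp without T3 and 187, 197 and 208 bp with T3, and those of the second 193, 208 and 204 bp and 181, 204 and 197 bp. Over the 6 wild type libraries the summits of the first lay within 6 bp and those of the second within 23 bp. The TRα (-/-) lists with a shortest peak of 177, 180 and 180 bp could hold peaks of all these lengths, and there the depth-scaled pileup was 19.4, 10.1 and 11.4 fragments for the first region and 15.6, 8.17 and 9.21 for the second. The list with 224 bp could hold none of them but the longest. Another strong region, on chromosome 6 from 112587165 to 112587347 and singled out after its values were seen, had 119, 144 and 191 fragments without T3 and 45, 74 and 0 with T3. It was listed in TRα (-/-) without T3 replicate 2 with 55 fragments and with T3 replicate 1 with 69, and in no other TRα (-/-) library, and all its peaks were 181 to 183 bp long. The wild type library without the peak and 3 of the 4 such TRα (-/-) libraries (shortest peak 191, 200, 205 and 224 bp) could not list a peak of that length, and the remaining TRα (-/-) library (177 bp) could. When peaks under 224 bp were removed from every list, 1345 wild-type-only regions (15.3% of 8790) and 217 of the stricter kind were found, and 1187 (68.1%) of the 1742 overlapped a region of the new set. The part of the length limit in the single regions was not tested.

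**Figure D4:**
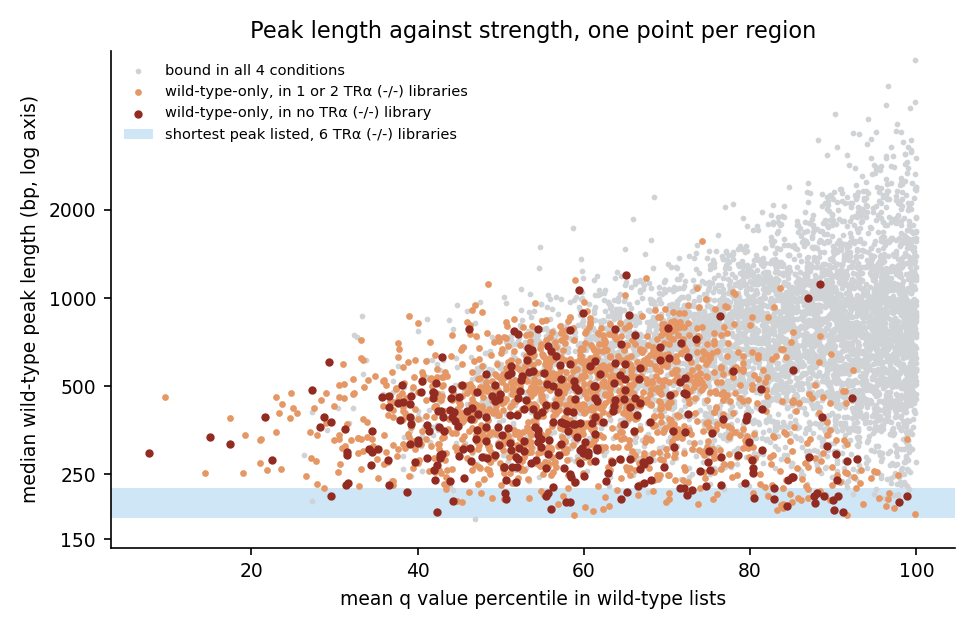
Median length of the wild type peaks of a region (bp, log axis) against its mean q value percentile in the wild type lists, for regions bound in all 4 conditions (grey), wild-type-only regions with a peak in 1 or 2 TRα (-/-) libraries (orange) and those with none (dark red); the blue band runs from 177 to 224 bp, the shortest peak lengths listed by the 6 TRα (-/-) libraries. Most wild-type-only regions lie at lower strength than the grey points, and a row of strong ones lies within the band.

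A high pileup was not always a high enrichment. The highest pileups of a region without any TRα (-/-) peak, singled out after the values were seen, were 133, 171 and 221 fragments without T3 and 55, 107 and 148 with T3, on chromosome 2 from 102146698 to 102147215. Its fold enrichment was 1.57 to 1.69 in the 6 libraries, so that the peak stood little above its local background. Another region on the same chromosome, from 102068376 to 102068879, had 97, 120 and 169 fragments without T3 and 52, 89 and 107 with T3. Its fold enrichment was 1.82 to 2.42, and it had 45 fragments in TRα (-/-) without T3 replicate 3. Regions bound in all 4 conditions lay between it and the region from 102146698. By contrast, the region on chromosome 4 from 36947618 to 36948098, with 86, 119 and 136 fragments without T3 and 34, 46 and 63 with T3, had a fold enrichment of 8.48 to 13.0 and a peak of 23 fragments in TRα (-/-) with T3 replicate 1. These strong sites differed in how far they stood above their surroundings.

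Within the wild-type-only regions, the position of the summit varied between libraries. The median distance between the outermost wild type summits of a region was 302 bp, and 241 bp in the stricter subset, against 314 bp in regions bound in all 4 conditions. All wild type summits lay within 100 bp of each other in 15.2%, 21.1% and 20.9% of the 3 sets. Where a TRα (-/-) library did have a peak in a wild-type-only region, its summit lay at a median of 82.8 to 126 bp from the mean wild type summit, depending on the library, against 84.8 to 103 bp for regions bound in all 4 conditions. Among peaks of at most 8 fragments the medians were 85.0 to 144 bp and 119 to 157 bp. The ranges for both sets overlapped.

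The wild-type-only regions were spread over the 10 chromosomes, with 131 to 230 on each. Their share of the regions bound in wild type under both treatments ran from 15.8% on chromosome 6 to 18.9% on chromosome 4, a narrow range around 17.3%. They were seldom close to each other: 136 of them (7.81%) lay within 10 kb of another, and the median gap was 100 kb. For the 5098 regions bound in all 4 conditions, a larger set, the share was 28.1%. Closeness to a region bound in TRα (-/-) was similar, at 46.8% (816 regions) within 10 kb against 49.7% for regions bound in all 4 conditions and 49.2% in the stricter subset. Within 1 Mb of a chromosome end, judged by the outermost peaks, lay 7.23% of the wild-type-only regions and 10.8% of those bound in all 4 conditions. The median width of the merged region was 760 bp for wild-type-only regions, 642 bp in the stricter subset and 1032.5 bp for regions bound in all 4 conditions, where more libraries contribute to the width.

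The 136 neighbouring regions formed 66 chains with gaps under 10 kb, 62 of 2 regions and 4 of 3. The most compact chain of 3, on chromosome 2 from 3593966 to 3601328 (7.36 kb), had no other region bound in TRα (-/-) inside it. Its middle region had 11, 8 and 20 fragments without T3 and 8, 0 and 11 with T3, and no TRα (-/-) peak. Its outer regions had 6 to 13 fragments without T3 and 4 to 13 with T3 in the libraries with a peak, and wild type with T3 replicate 2 had a peak in none of the 3. The next chain, on chromosome 5 from 44102068 to 44114224 (12.2 kb), had 2 regions bound in TRα (-/-) between its members, and the third, on chromosome 3 from 2971399 to 2988408 (17.0 kb), had none. In these chains 2, 1 and 1 of the 3 regions were without any TRα (-/-) peak.

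T3 treatment was then compared within wild type. The rule asked for a peak under both treatments but not for its strength, so the strength with T3 against without T3 was compared over libraries. In each library the peaks in the 10085 regions bound in wild type under both treatments were ranked by q value, and the median rank percentile of the wild-type-only regions was taken. It was 24.2, 23.1 and 22.0 without T3 and 29.4, 27.2 and 27.6 with T3. All libraries with T3 were above all without T3, at 28.1 ± 1.15 against 23.1 ± 1.10 (SD, n = 3 technical libraries). The difference of 4.98 percentile points had p = 0.1 (exact permutation, two-sided), and 3 libraries against 3 allow no smaller p. Ranked by summit pileup in place of q value, the difference was 8.8. For regions bound in all 4 conditions the rank was 65.7 ± 1.77 with T3 and 67.8 ± 1.28 without T3 (SD, n = 3), a difference of -2.17 (exact two-sided permutation test, p = 0.2). The gap between both sets within a library was -37.6 with T3 and -44.7 without T3, narrower by 7.15 with T3 (exact two-sided permutation test, p = 0.1). For the stricter subset the difference was 4.86, and the libraries overlapped (exact two-sided permutation test, p = 0.2). Each median is taken over the wild-type-only regions with a listed peak in that library. Their share was 77.6%, 79.4% and 89.0% without T3 and 65.2%, 76.4% and 85.8% with T3. The parts of this share, of the cutoff and of depth in the differences of 4.98 and 7.15 were not tested.

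**Figure D5:**
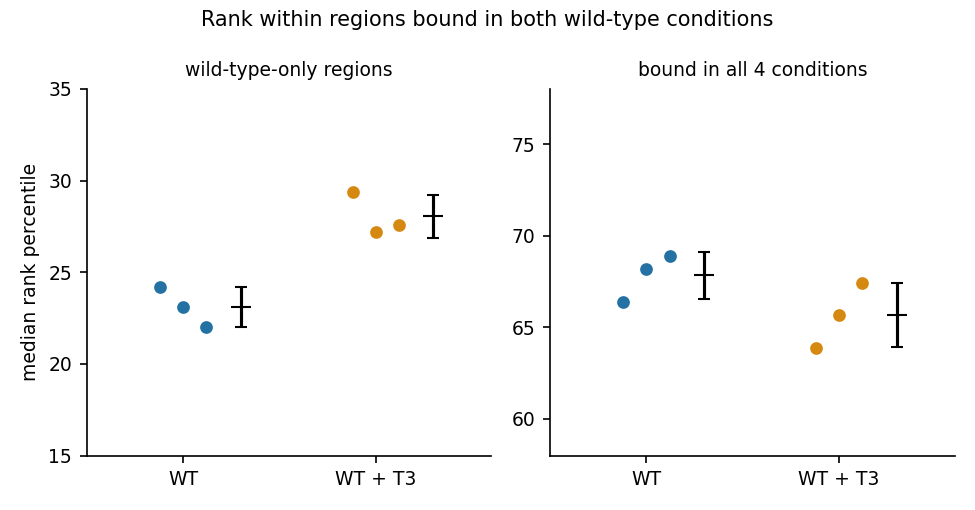
Median rank percentile by q value, among the regions bound in wild type under both treatments, of the wild-type-only regions (left) and of the regions bound in all 4 conditions (right) in the 3 wild type libraries without and with T3; points are libraries, black marks are means with SD (n = 3), and the panels have different vertical ranges of equal length. The wild-type-only regions were at 22.0 to 24.2 without T3 and at 27.2 to 29.4 with T3.

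Region by region, the summit pileup was compared between treatments with limma over the 5136 regions listed in every wild type library, 286 of them wild-type-only, after dividing each library by its median over these regions. Among all tested regions 6 (0.117%) were higher with T3 and 17 (0.331%) lower at an adjusted p below 0.05. Among the 286 wild-type-only regions 0 were higher and 1 was lower. At an unadjusted p below 0.05, 20 of the 286 were higher and 7 lower, against 3.15% and 5.43% of all tested regions. In 28 of them (9.79%) all T3 libraries were above all libraries without T3, and in 17 (5.94%) all were below, against 5.32% and 7.22% of all tested. The median log2 difference was 0.13 for the wild-type-only regions (10th to 90th percentile -0.36 to 0.65), -0.01 for all tested and -0.04 for those bound in all 4 conditions, and 185 of the 286 (64.7%) were above 0, against 48.9% of all tested. The median standard error of a single region was 0.37. The 43 tested regions of the stricter subset had a median log2 difference of 0.06. Keeping only regions with a mean summit pileup of at least 8 fragments left 153 wild-type-only regions. Their median was then 0.06, against -0.04 over all regions kept. With 1 library left out, the median of the 286 ran from 0.04 (without wild type with T3 replicate 1) to 0.22 (without wild type without T3 replicate 1). Scaling by total fragments in place of the median moved the median of all tested regions to 0.52 and that of the wild-type-only regions to 0.66, with 467 regions called higher and 9 lower, of which 40 and 0 were wild-type-only.

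The single region that was called lower with T3 lay on chromosome 10 from 9719193 to 9719928. It had 19, 34 and 41 fragments without T3 and 3, 7 and 9 with T3, and the treatments did not overlap. Its log2 difference was -1.52 (SE 0.33, limma adjusted p = 0.0214), and in TRα (-/-) it had 15 fragments in replicate 3 without T3 and 18 in replicate 2 with T3. The call was lost with scaling by total fragments (log2 difference -0.99, limma adjusted p = 0.0539) and with fold enrichment in place of pileup (-1.14, adjusted p = 0.0866). It was also lost without replicate 1, 2 or 3 of wild type without T3 (limma adjusted p = 0.0635, 0.292 and 0.15), where the log2 difference was about as large, at -1.64, -1.42 and -1.50. The next lowest p values among regions lower with T3 belonged to chromosome 3 from 72755244 to 72756447, with 15, 11 and 26 fragments without T3 and 3, 3 and 4 with T3 (log2 difference -1.44, SE 0.38, limma adjusted p = 0.0983), and to the seventh named region (log2 difference -0.78, SE 0.32, limma adjusted p = 0.472). Neither passed, although the region on chromosome 3 did so with the replicate block (limma adjusted p = 0.0312) and without wild type with T3 replicate 1 (0.0362).

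In the other direction, the lowest p value belonged to chromosome 7 from 114614264 to 114614852, with 5, 10 and 9 fragments without T3 and 5, 15 and 17 with T3. Its log2 difference was 1.36 (SE 0.37, limma adjusted p = 0.119), and its raw fragments overlapped between treatments while its scaled values did not. The tenth named region had a log2 difference of 1.19 (SE 0.38, limma adjusted p = 0.27). The region on chromosome 3 from 129151377 to 129152487, with 5, 6 and 6 fragments without T3 and 4, 7 and 10 with T3, had 1.07 (SE 0.36, limma adjusted p = 0.329). None of the 3 passed the test with median scaling, and all 3 passed with scaling by total fragments (limma adjusted p = 0.00538, 0.013 and 0.0152), which moved the median of all tested regions by the 0.52 given above. The first and second named regions, the strongest of the stricter subset, had log2 differences of -0.57 (SE 0.23, limma adjusted p = 0.472) and 0.29 (SE 0.23, limma adjusted p = 0.798), and neither passed the test.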

How the data were processed

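TR ChIP-seq of stage 54 hind limb was analysed as 12 peak lists, 3 technical replicate libraries for each of 4 conditions, grouped by their sample labels. Per the methods and the processing notes, the authors mapped reads with Bowtie2 2.3.4.1 on Xenbase v9.1, discarded redundant reads and called peaks in each library with MACS2 2.1.1.20160309, without a control library, at a q value cutoff of 0.05. The deposited lists give for each peak the position, the summit pileup (a signal: fragments, unscaled), the −log10 p-value, the −log10 q-value and the fold enrichment (a ratio of pileup to local background). Depth is the number of fragments after filtering in the authors' file headers.

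Peaks sharing at least 1 bp were merged, and classes, positions and ranks were computed in Python 3.11.15 with scipy 1.17.1, pandas 2.3.3 and numpy 2.4.6. A region's strength is the mean, over the wild type lists with a peak in it, of the percentile of its best q value among all peaks of the list. T3 was compared with exact two-sided permutation tests over libraries and, region by region, with limma 3.58.1 (R 4.3.3) on the log2 summit pileup divided by the library's median, with no pseudocount, since only regions with a peak in all 6 wild type libraries entered, and Benjamini-Hochberg adjustment over 5136 regions. The scripts were tested on simulated lists and pileups. In simulated pileups limma called 84% of planted 4-fold changes and 18% of planted 2-fold changes, with 100 regions for each. A region that was not called is therefore not shown to be unchanged.

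Regions were named by rule: the 10 of highest mean q value percentile among those in all 6 wild type and no TRα (-/-) libraries, the 3 chains with the most regions (shortest first), and the 3 tested regions with the lowest limma p in each direction. The regions, rules and tests were chosen with earlier results of these data known. Alternatives were stricter q values (0.01 and 0.001), fold enrichment of at least 4, peaks closer than 500 bp merged, 50% coverage of a region, 1 or all 3 libraries required, equal numbers of peaks, other scalings and measures of rank, a replicate block, omission of each library in turn and, chosen after seeing the data, a minimum peak length. A further alternative for limma kept only regions with a mean summit pileup of at least 8 fragments. Peaks were not assigned to genes and no sequence was read, because no v9.1 annotation or genome was used here.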

Additional observations from a re-analysis of the deposited data

How the results depend on the processing

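Neither rank difference, of the wild-type-only regions or relative to regions bound in all 4 conditions, changed sign under the alternatives run. Nor did the log2 differences of the 3 wild-type-only regions with the lowest limma p in each direction. Those of the other named regions were not compared between alternatives. The balance of the limma calls turned over with the scaling. After median scaling 6 regions were higher and 17 lower with T3 (26.1% higher). After scaling by total fragments 467 were higher and 9 lower (98.1% higher). The number of wild-type-only regions was 3580 with 1 library sufficient and 330 with equal numbers of peaks in every list, and 725 to 3074 with libraries left out: 725, 889 and 1084 without wild type with T3 replicate 3, 2 or 1, 993 and 1160 without wild type without T3 replicate 3 or 2, and 3074 and 2882 without TRα (-/-) with T3 replicate 3 or 2. With 2 libraries still required, leaving out a library can only lower the number bound in its own condition. Membership changed more than the number: of the 1742 regions, 592 (34.0%) overlapped the 1218 found at a q value below 0.001, and 69 (3.96%) the 330 found with equal numbers of peaks. With all 3 libraries required, 286 (16.4%) overlapped the 1299 found. That overlap is fixed by the rule, as it holds the regions with a peak in every wild type library. This alternative also allows up to 2 libraries in a TRα (-/-) condition.

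The share of the regions bound in wild type under both treatments was 18.1% at a q value below 0.01, 18.3% at 0.001, 18.1% at a fold enrichment of at least 4, 22.5% with 50% of the region covered, 18.1% with 1 library, 25.3% with all 3, 11.4% with equal numbers of peaks, 15.3% with the length minimum, and 11.2% to 30.5% with libraries left out. The stricter subset had 3580 regions with 1 library, 43 with all 3 libraries, 76 with equal numbers of peaks and 119 to 583 with libraries left out. The reverse pattern had 81 regions at 0.001, 1090 with 1 library, 36 with all 3 and 14 to 320 with libraries left out. With equal numbers of peaks it had 133, against 330 wild-type-only regions.

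In the same order (q value 0.01 and 0.001, fold enrichment, all 3 libraries, equal peaks, length minimum) the share near a region bound in TRα (-/-) was 43.2%, 35.6%, 37.1%, 30.4%, 28.5% and 43.8%, and the median width 795, 820, 810, 913, 782 and 820 bp, or 822 bp with peaks closer than 500 bp merged. The share near another wild-type-only region was 5.75% at 0.001, 6.44% by fold enrichment, 3.64% with equal peaks and 4.54% with the length minimum.

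The T3 difference in rank kept its direction, at 4.32 to 5.54 with libraries left out, 4.85 ranked by fold enrichment and 8.8 ranked by summit pileup, and relative to regions bound in all 4 conditions at 5.59 to 8.42, 6.44 and 8.89. The limma calls numbered 12 to 29 with libraries left out, 476 scaled by total fragments, 3 by fold enrichment and 644 by libraries that do not overlap. Same-numbered libraries deviated together by a correlation of 0.0709, 0.0186 and 0.0393, under 0.1 each though highest for the own number. Whether same-numbered libraries share more than a number was not tested. With the replicate block limma called 51 regions, 2 of them wild-type-only (adjusted p = 0.00429 on chromosome 10 and 0.0312 for the second on chromosome 3), and the exact sign-flip test of the rank differences of 4.98 and 7.15 gave p = 0.25, the smallest that 3 pairs allow. In the wild type libraries the wild-type-only regions had median pileups of 4 to 10 fragments, and the lowest listed pileups were 2 to 5. The causes of the changes between alternatives were not tested.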

Other observations

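Among the regions bound in both wild type conditions, 2735 were bound in TRα (-/-) with T3 only and 510 in TRα (-/-) without T3 only. The former had a median wild type peak length of 529 bp and the latter of 514.75 bp, between the 425 bp of the wild-type-only regions and the 719 bp of the regions bound in all 4 conditions. Of the 2735, 446, 51 and 1397 had a peak in TRα (-/-) without T3 replicates 1, 2 and 3, replicate 2 being the shallowest library. Of the 510, 66, 119 and 248 had a peak in TRα (-/-) with T3 replicates 1, 2 and 3. The part of depth in both counts was not tested.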
